A study of Homo sapiens with 20 samples.

Results

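The mitochondrial ribosome is built from rRNAs that the mitochondrial genome encodes and from proteins that nuclear genes encode, make in the cytosol and send into the organelle. Most of these proteins carry the symbols MRPL, for the large subunit, or MRPS, for the small subunit, and the mitoribosome they form makes the respiratory chain subunits that the mitochondrial genome encodes. Liver cells depend on it for oxidative phosphorylation. The genes described here (MRP genes) were chosen by symbol alone, as MRPL or MRPS followed by digits and an optional A, B or C, without pseudogenes. The rule found 78 MRP genes among the 28278 genes of the RNA immunoprecipitation (RIP) table, 49 named MRPL and 29 named MRPS. Below, large and small subunit genes are grouped by symbol alone, which does not show where each protein sits. All 78 passed the filter on low counts in that table. Of the 78, 55 genes had a skipped exon (SE) event in at least 1 of 3 splicing tables, 24 had one in all 3 tables, and 23 had none.

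HepG2, a line from a human liver cancer, was used throughout. FUBP1, a nuclear RNA-binding protein that binds U-rich single-stranded sequence and acts in splicing, was depleted with siFUBP1 against siCtrl2 for 48 h. U3, a C/D box small nucleolar RNA, was depleted with U3 ASO against GFP ASO, both antisense oligonucleotides, for 72 h. FBL (fibrillarin), the enzyme that places 2′-O-methyl groups with C/D box snoRNAs, was depleted with siFBL against siCtrl for 48 h before FUBP1 RIP. The siFUBP1 and U3 ASO comparisons were polyadenylated RNA with 3 libraries per group, and the siFBL comparison had 2 RIP and 2 input libraries per group. The comparisons ask whether loss of FUBP1, or of the methylation machinery, changes exon inclusion or FUBP1 binding. Each comparison had its own control group.

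Depth differed between the splicing tables. Libraries held 2693397 to 4474350 junction reads in the siFUBP1 table, 11249641 to 13321799 in the U3 ASO table and 910779 to 1142189 in the input table. Reads at the single FUBP1 event were 45.2, 56.1 and 50.3 per 1000000 junction reads in siCtrl2 and 8.42, 10.1 and 4.08 in siFUBP1. FUBP1 reads were also lower in U3 ASO, at 43.4, 42.6 and 38.7 per 1000000 over 3 events, against 64.0, 58.7 and 56.9 in GFP ASO. The mean normalized count of FBL in the RIP table was 1034 in siCtrl and 164.4 in siFBL, and that of FUBP1 was 14260 and 8689. These means run over RIP, input and 2 further libraries and are no measure of the RNA in the input alone. The U3 RNA was not analysed here. The 8 hepatocyte markers had mean normalized counts from 3544 (TTR) to 1132700 (APOB) in siCtrl, against 2.8 (VIM) to 64.8 (PECAM1) for the 4 markers of other cell types.

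Sequences from both ends of the FUBP1 enrichment order are shown first, because base composition was the property that varied most closely with that order. Enrichment is the log2 ratio of RIP over input on normalized counts. It is therefore relative to other genes, and 0 is no boundary between bound and unbound RNA. Each line gives up to 120 bases at the end of the coding sequence, within the last coding exon and without the stop codon, from hg38 on the gene's strand, with runs of at least 3 T in capitals. The first 3 genes had the highest enrichment and the last 3 the lowest.
MRPL42, chr12:93501176-93501218, plus strand: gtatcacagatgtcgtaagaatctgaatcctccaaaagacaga
MRPL19, chr2:75655163-75655282, plus strand: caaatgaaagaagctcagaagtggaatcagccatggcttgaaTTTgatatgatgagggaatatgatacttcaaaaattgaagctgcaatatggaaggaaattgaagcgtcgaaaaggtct
MRPL50, chr9:101390469-101390588, minus strand: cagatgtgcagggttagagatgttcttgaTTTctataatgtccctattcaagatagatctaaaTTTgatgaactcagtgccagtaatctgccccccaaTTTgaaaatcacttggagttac
MRPL54, chr19:3767271-3767390, plus strand: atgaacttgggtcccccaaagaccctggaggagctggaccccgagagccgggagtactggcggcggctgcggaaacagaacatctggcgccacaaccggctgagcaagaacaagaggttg
MRPL28, chr16:367678-367782, minus strand: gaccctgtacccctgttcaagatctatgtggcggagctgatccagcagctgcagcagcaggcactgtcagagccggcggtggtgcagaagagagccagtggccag
MRPS12, chr19:38932578-38932697, plus strand: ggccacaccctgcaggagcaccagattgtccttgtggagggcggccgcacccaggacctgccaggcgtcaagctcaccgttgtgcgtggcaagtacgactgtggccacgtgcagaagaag
G and C made up 39.5%, 37.5% and 38.3% of these bases in MRPL42, MRPL19 and MRPL50. In MRPL54, MRPL28 and MRPS12 the share was 61.7%, 61.9% and 64.2%. MRPL50 held 3 runs of T and MRPL19 held 1, and the other 4 sequences held 0.

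FUBP1 enrichment of most MRP genes in siCtrl was below that of the typical gene. The RIP table gives 1 estimate with its standard error per gene and condition, so no value per library can be shown. Each estimate compares 2 RIP with 2 input libraries, in a fit whose mean normalized counts run over 6 libraries, 2 of them in neither arm. The median over the 78 MRP genes was -1.34 on the log2 scale, against 0.0802 over all 14242 genes tested. Enrichment was above 0 for 24 of 78 MRP genes (30.8%, against 51.2% of all genes), above 1 for 15 (19.2%, against 35.7%) and below -1 for 45 (57.7%, against 35.2%). These shares are a description, with no test. The values ran from -4.31 to 3.10, and the standard error had a median of 0.219 and ranged from 0.0886 to 0.747. Of the 77 pairs of neighbours in the order of enrichment, 76 lay closer than 1.96 standard errors of their difference. The exception was the pair of MRPL42 and MRPL19.

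**Figure D1:**
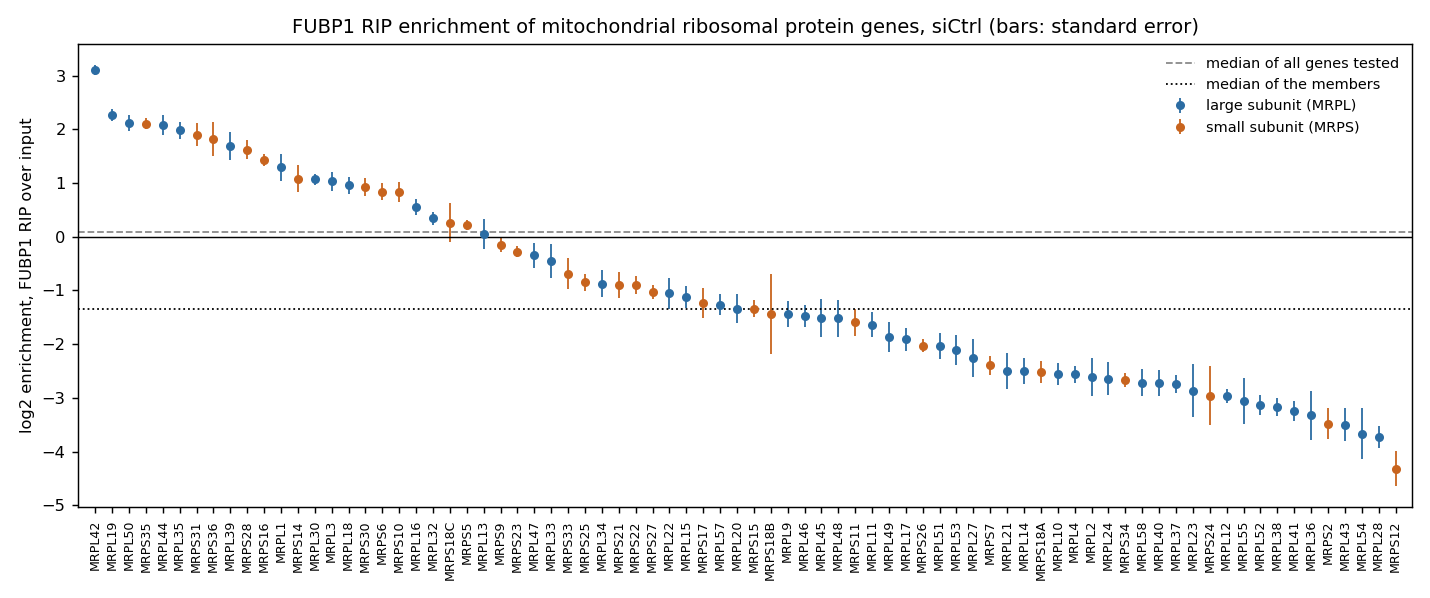
The log2 enrichment of FUBP1 RIP over input in siCtrl (y axis) for each of the 78 MRP genes (x axis, in order), with the standard error as bars, blue for the large and orange for the small subunit. Enrichment falls from 3.10 for MRPL42 to -4.31 for MRPS12, and the median of the MRP genes (dotted, -1.34) lies below that of all genes tested (dashed, 0.0802).

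The 8 highest enrichments belonged to MRPL42 (3.10 ± 0.0941, standard error), MRPL19 (2.27 ± 0.115), MRPL50 (2.11 ± 0.146), MRPS35 (2.10 ± 0.0992), MRPL44 (2.08 ± 0.181), MRPL35 (1.98 ± 0.158), MRPS31 (1.90 ± 0.218) and MRPS36 (1.82 ± 0.324). MRPL42 (chr12:93467514-93516214, plus strand) was 8.58-fold higher in RIP than in input on normalized counts and stood at the 94.1st percentile of all genes tested. MRPL19 and MRPL35 are the mitochondrial forms of bacterial L19 and L35. MRPL42, MRPL44, MRPL50, MRPS31 and MRPS35 are proteins that bacterial ribosomes lack, and MRPS36 is now known as a component of the oxoglutarate dehydrogenase complex. The 5 lowest were MRPS12 (-4.31 ± 0.331), MRPL28 (-3.73 ± 0.210), MRPL54 (-3.66 ± 0.474), MRPL43 (-3.50 ± 0.304) and MRPS2 (-3.48 ± 0.290). MRPS12 (chr19:38930944-38933168, plus strand), the homologue of the bacterial S12 protein at the decoding centre, was at 0.0503 of its normalized input level and at the 1.16th percentile. All 13 of these genes had a mean normalized count above 50.

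Both subunits spanned the range. The median enrichment was -1.64 for the 49 large subunit genes, of which 13 were above 0, and -0.847 for the 29 small subunit genes, of which 11 were above 0. The MRPL genes up to MRPL36 and the MRPS genes up to MRPS21, together with MRPS24 and MRPS28 (46 genes), had a median of -1.29 and the 32 others -1.49. The subunits were not tested against each other. Cytosolic ribosomal protein genes, which the same cells make in far larger amounts, had a median of -1.87 over 82 genes, with 2 above 0 and a highest value of 0.136. Nuclear-encoded respiratory chain genes had a median of -1.45 over 79 genes, with 19 above 0. So the MRP genes and the respiratory chain genes each had members on both sides, while almost all cytosolic ribosomal protein genes lay below 0.

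Enrichment of the MRP genes varied with the base composition of their mRNAs. Over the 78 canonical transcripts (GENCODE 44), Spearman's rank correlation between enrichment and the share of G and C was -0.859 (Pearson's r = -0.823), and over 12413 genes with a canonical protein-coding transcript it was -0.797. The 24 genes above 0 had a median of 41.2% G and C and the 54 genes below 0 a median of 51.9%. The relation held in both parts of the transcript, with a rank correlation of -0.772 for the coding sequence and -0.802 for the non-coding parts. For the share of U, the rank correlation was 0.809, and for runs of at least 4 T per kilobase (TTTT, read on the sense strand) it was 0.694. Genes above 0 had a median of 8.46 such runs per kilobase and genes below 0 had 3.43. MRPL19 held 14.4 per kilobase and MRPL41 and MRPS34 held none. The points share the same 4 libraries and their depth, and genes are not independent replicates, so no p is given. Enrichment also varied with the mean normalized count (rank correlation = 0.401).

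Other features of the transcripts varied less with enrichment. The rank correlation was 0.491 for the spliced length, 0.570 for the longest intron, 0.129 for the number of exons and 0.0959 for the coding length. The median spliced length was 1668 bases for the genes above 0 and 1184 bases for those below, against 3443 bases over all genes. MRPL42 had the longest canonical transcript of the 78, with 15557 bases of which 426 were coding. In the 26 MRP genes with the least G and C (34.8% to 44.6%), the median enrichment was 1.05, against 1.76 for the 4446 genes in that range. In the middle 26 (45.0% to 51.9%) it was -1.44 against 0.0997, and in the 26 with the most (52.3% to 66.7%) it was -2.70 against -2.06. The median of the MRP genes was below that of all genes in each range. These medians were not tested.

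**Figure D2:**
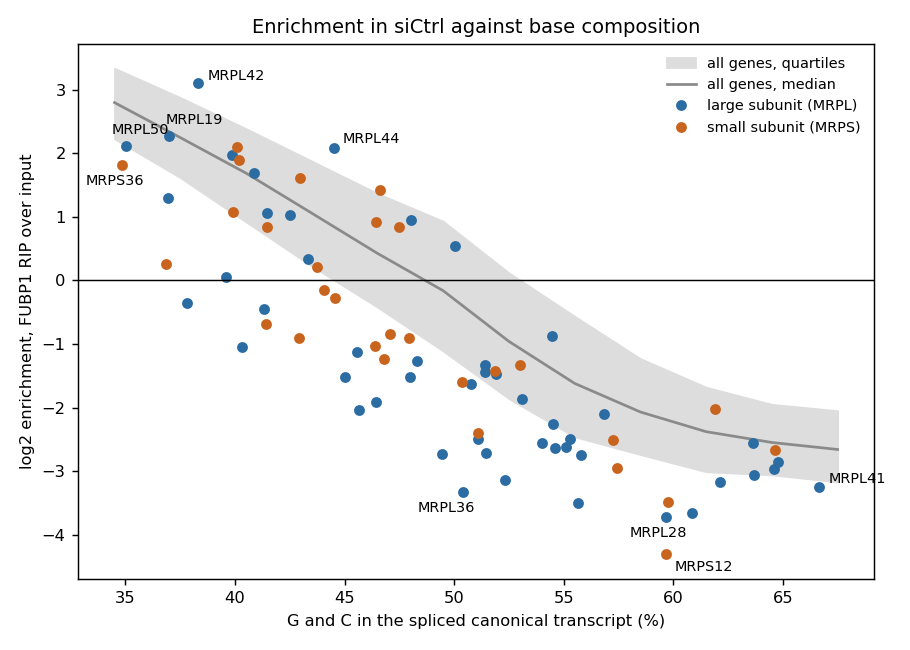
The log2 enrichment in siCtrl (y axis) against the percentage of G and C in the spliced canonical transcript (x axis) for the 78 MRP genes. The grey line and band give the median and quartiles of all genes in steps of 3 percentage points, and MRP genes fall along the same slope, many of them below the line.

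After siFBL, FUBP1 enrichment differed for 5 of 78 MRP genes (6.41%) at an adjusted p under 0.1, against 12.0% of all genes tested. The difference was divided by the combined standard error of the DESeq2 estimates, with adjustment over all 14242 genes. A higher enrichment was found for 3 MRP genes (3.85%, against 5.36% of all genes) and a lower one for 2 (2.56%, against 6.64%). MRPL38 rose from -3.17 ± 0.171 to -2.47 ± 0.164 (adjusted p = 0.0360 with the DESeq2 errors). MRPS34, a small subunit protein that bacterial ribosomes lack, rose from -2.67 ± 0.131 to -2.12 ± 0.139 (adjusted p = 0.0484 with the DESeq2 errors). MRPS5, the homologue of bacterial S5, rose from 0.218 ± 0.0886 to 0.594 ± 0.0927 (adjusted p = 0.0401 with the DESeq2 errors). MRPL50 fell from 2.11 ± 0.146 to 1.52 ± 0.137 (adjusted p = 0.0399 with the DESeq2 errors), and MRPL19 fell from 2.27 ± 0.115 to 1.89 ± 0.0904 (adjusted p = 0.0866 with the DESeq2 errors). The call for MRPL19 was lost when no filter on low counts was used (adjusted p = 0.105 with the DESeq2 errors).

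MRPL38 and MRPS34 stayed well below 0, and MRPL50, MRPL19 and MRPS5 stayed above it, so none of the 5 crossed 0. MRPL38 lies at chr17:75898644-75904884 (minus strand), MRPS34 at chr16:1771895-1773134 (minus strand), MRPS5 at chr2:95085369-95121808 (minus strand), MRPL50 at chr9:101387633-101398618 (minus strand) and MRPL19 at chr2:75646783-75662206 (plus strand). The next 3 by p were MRPL42, MRPL30 and MRPL1, with differences of -0.35 ± 0.143, -0.32 ± 0.158 and -0.76 ± 0.381 and adjusted p of 0.110, 0.218 and 0.234 with the DESeq2 errors, none past the threshold. MRPL42 passed it (adjusted p = 0.0953 with the DESeq2 errors) when genes needed a mean count of at least 50. MRPS12 had a larger difference, 1.21 ± 0.615, with an adjusted p of 0.245 with the DESeq2 errors.

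The median of the MRP genes was -1.34 in siCtrl and -1.30 in siFBL, and the SD over genes was 1.83 and 1.69. Of the 24 genes above 0 in siCtrl, 18 (75.0%) were lower after siFBL, as were 71.7% of all genes above 0. Of the 54 below 0, 37 (68.5%) were higher, as were 72.3% of all genes below 0. Because the same estimate sorted the genes and entered the difference, these shares are given beside those of all genes with no reading. Only MRPL13, MRPS9 and MRPS23 had a different sign in the 2 conditions, with enrichments of 0.0489, -0.146 and -0.278 in siCtrl and -0.163, 0.121 and 0.0743 in siFBL. The rank correlation between the difference and the share of G and C was 0.318 over the MRP genes and 0.408 over all genes.

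**Figure D3:**
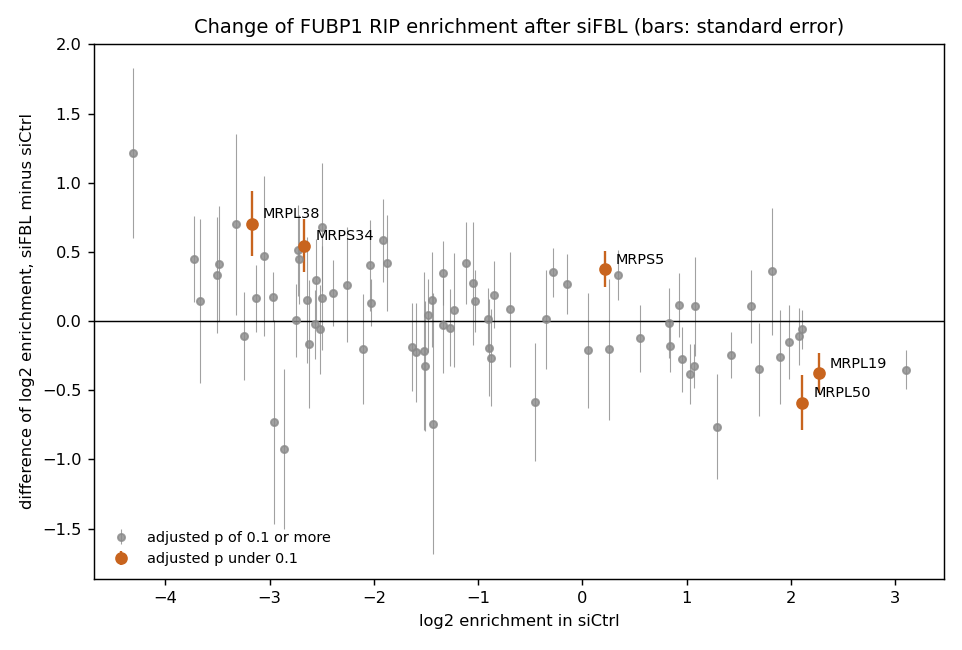
The change of log2 enrichment after siFBL (y axis, siFBL minus siCtrl, bars are the standard error of the difference) against the enrichment in siCtrl (x axis) for the 78 MRP genes. The 5 genes with an adjusted p under 0.1 are coloured and named, with MRPL38, MRPS34 and MRPS5 above 0 and MRPL19 and MRPL50 below.

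The other genes of mitochondrial translation had mixed enrichment. The 5 mitoribosomal proteins under other names (such as DAP3, the small subunit GTP-binding protein) had a median of -1.54 in siCtrl and none passed the test of the difference. The 22 genes of mitoribosome assembly and rRNA modification (such as MRM2, which methylates mitochondrial rRNA at a ribose) had a median of -1.15, and 2 rose after siFBL. Of 16 mitochondrial translation factors, 15 were tested, with a median of 0.349, and 1 rose and 2 fell. The 17 mitochondrial tRNA synthetases had a median of -0.977, and 1 rose.

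The exon events of the MRP genes are described next, beginning with the exons that HepG2 cells used in part or that set the smallest p. In each line the bases come from hg38 on the gene's strand and the capitals mark the exon, with 15 bases of intron on either side, except for MRPL52.
MRPL33 107-base exon, chr2:27774409-27774545, plus strand: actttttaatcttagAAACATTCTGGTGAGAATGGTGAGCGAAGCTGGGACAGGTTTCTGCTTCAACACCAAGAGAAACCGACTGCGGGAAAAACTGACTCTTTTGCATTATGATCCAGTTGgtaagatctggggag
MRPL33 19-base exon, chr2:27772659-27772707, plus strand: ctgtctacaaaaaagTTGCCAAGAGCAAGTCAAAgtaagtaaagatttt
MRPS18C 84-base exon, chr4:83458331-83458444, plus strand: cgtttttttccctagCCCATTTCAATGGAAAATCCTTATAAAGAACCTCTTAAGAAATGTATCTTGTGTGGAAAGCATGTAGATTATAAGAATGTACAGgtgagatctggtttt
MRPS18C 58-base exon, chr4:83459725-83459812, plus strand: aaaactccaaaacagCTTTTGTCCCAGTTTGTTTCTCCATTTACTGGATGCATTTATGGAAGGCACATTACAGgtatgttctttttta
MRPS10 73-base exon, chr6:42214105-42214207, minus strand: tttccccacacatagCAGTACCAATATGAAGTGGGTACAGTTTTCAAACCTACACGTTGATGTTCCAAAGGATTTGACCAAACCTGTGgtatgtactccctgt
MRPL52 72-base exon, chr14:22833403-22833504, plus strand: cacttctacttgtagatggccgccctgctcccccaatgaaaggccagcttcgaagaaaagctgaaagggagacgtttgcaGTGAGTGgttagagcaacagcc
In MRPL52 the capitals are the 7 bases that the 72-base form of the exon has and the 65-base form lacks. All of these exons follow AG and precede GT.

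Splicing of MRP genes was not called changed in any of the 3 comparisons. An event is 1 exon with a given pair of neighbouring exons, and its inclusion level runs from 0 to 1. A quasi-binomial test of inclusion against skipping reads, with the dispersion moderated by limma, was applied where an event averaged 10 or more junction reads over the libraries. After siFUBP1, 0 of 90 MRP events were called, against 0.154% of all events tested. Calls were 0 of 153 with U3 ASO, against 0.186%, and 0 of 29 with siFBL, against 0%. At an unadjusted threshold of 0.05, 1, 4 and 0 MRP events passed, against 3.57%, 3.25% and 1.46% of all events. By limma on the log2 odds of inclusion, 0 were called, and 7, 7 and 2 passed 0.05, against 6.62%, 6.51% and 5.55% of all events.

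Inclusion levels of the compared groups did not overlap for 1 higher and 5 lower MRP events after siFUBP1, against 1.96% and 3.10% of all events. Under U3 ASO there were 6 higher and 2 lower, against 2.31% and 3.72%. After siFBL there were 2 higher and 0 lower, against 6.20% and 7.64%. The lower events after siFUBP1 lay in MRPS18C, MRPS28 and MRPL52 alone, and MRPS18C held more than 1 of them. Events of one gene often share reads. Of the 99 listed MRP events after siFUBP1, 34 had the same skipping reads as another event of their gene, and of 160 under U3 ASO 58 did. The smallest adjusted p of the quasi-binomial test with limma over the MRP events was 0.836, 0.542 and 0.898 in the 3 comparisons.

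The lengths of the skipped exons are given per tested event, so an exon with several events counts more than once, and were not tested. The length was a multiple of 3 for 27.8% of the 90 tested MRP events after siFUBP1 against 45.1% of all events, for 28.8% of 153 in the U3 ASO table against 41.1%, and for 24.1% of 29 in the input table against 48.7%. The median length was 86.5, 88 and 84 bases, against 115, 117 and 116. For respiratory chain genes the length was a multiple of 3 in 34.5%, 34.8% and 35.5% of tested events, in the same order. For cytosolic ribosomal protein genes this share was 38.5%, 42.1% and 48.4%. For mitoribosome assembly and rRNA modification it was 19.0%, 19.0% and 33.3%, the last on 3 events. The 3 tables list many of the same exons (30 MRP exons in all 3) and so are no repeats of each other. Of the 120 MRP exons listed under U3 ASO, 93 are exons of the canonical transcript and 17 lie outside its exons. Control inclusion was above 0.98 for 54.4% and 61.4% of tested MRP events in siCtrl2 and GFP ASO, against 47.4% and 56.3% of all events. In the shallower input table it was 17.2%, against 39.7%.

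MRPL33, the mitochondrial form of bacterial L33, used 1 of its exons in part. The 107-base exon is the third of 4 exons of the canonical transcript and is coding. Its inclusion level was 0.474, 0.507 and 0.399 in siCtrl2 and 0.516, 0.505 and 0.552 in siFUBP1. In GFP ASO it was 0.734, 0.715 and 0.600, and in U3 ASO 0.710, 0.727 and 0.721. In the input it was 0.593 and 0.791 in siCtrl and 0.292 and 0.615 in siFBL. The groups overlapped in each comparison, and the control levels in siCtrl2 were all below those in GFP ASO, which came from another experiment with another harvest time.

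The 19-base exon of MRPL33 was read as included in every library of GFP ASO, with 89, 110 and 164 inclusion and 0, 0 and 0 skipping reads. In U3 ASO there were 132, 92 and 113 inclusion and 2, 10 and 14 skipping reads, so inclusion was 0.983, 0.891 and 0.877. The groups did not overlap, and the adjusted p was 0.868 by the quasi-binomial test with limma. The skipping junction of this event also passes over the 107-base exon. In the siFUBP1 table the same event had 0, 9 and 0 skipping reads in siCtrl2 and 0, 4 and 10 in siFUBP1. Inclusion was 1.00, 0.914 and 1.00 in siCtrl2 and 1.00, 0.927 and 0.822 in siFUBP1, with overlap. In the input there were 0 and 7 skipping reads in siCtrl and 9 and 0 in siFBL. Some control libraries thus held such reads as well. In the GFP ASO libraries, 0 skipping reads allow a skipping share of up to 3.37%, 2.73% and 1.83% of the junction reads, by counting error alone. These limits are not scaled for length as the inclusion level is, and would be larger on that scale.

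MRPS18C, a small subunit protein with the paralogues MRPS18A and MRPS18B, had 2 adjacent exons that were left out in part. Inclusion of the 84-base exon was 0.693, 0.797 and 0.813 in siCtrl2 and 0.629, 0.707 and 0.857 in siFUBP1, and the groups overlapped. For the 58-base exon, in its event with the most reads, inclusion was 1.00, 0.969 and 1.00 in siCtrl2 and 0.946, 0.920 and 0.941 in siFUBP1. Counted against the junction that leaves out both exons, it was 0.893, 0.860 and 0.800 in siCtrl2 and 0.774, 0.580 and 0.631 in siFUBP1. That junction held 5, 9 and 9 reads in siCtrl2 and 25, 25 and 16 in siFUBP1. Each siFUBP1 library was below each siCtrl2 library for the 58-base exon, and neither event was called (adjusted p = 0.836 for both by the quasi-binomial test with limma). Against the same junction the 84-base exon was at 0.729, 0.640 and 0.574 in siCtrl2 and 0.499, 0.479 and 0.490 in siFUBP1. These 2 exons share those skipping reads, so their events are no separate measurements.

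In the U3 ASO table the same junction held 11, 7 and 9 reads in GFP ASO and 16, 0 and 11 in U3 ASO. The 58-base exon then had inclusion levels of 0.990, 0.980 and 1.00 in GFP ASO and 0.981, 1.00 and 0.965 in U3 ASO, which overlapped. The 84-base exon was at 0.920, 0.926 and 0.851 in GFP ASO and 0.798, 0.852 and 0.898 in U3 ASO, again with overlap.

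MRPL52 (chr14:22829887-22835037, plus strand) codes for a large subunit protein that bacterial ribosomes lack. Its events held 10.4% of the reads at MRP events in the U3 ASO table and 45.6% in the input table. Its 74-base exon at chr14:22830964-22831037 lies outside the canonical transcript, in a UTR of other coding transcripts. In GFP ASO it had 33, 31 and 25 inclusion reads against 1240, 1562 and 1412 skipping reads, and in U3 ASO 83, 117 and 85 against 1823, 1613 and 1935. Inclusion was 0.0175, 0.0131 and 0.0117 in GFP ASO and 0.0295, 0.0462 and 0.0285 in U3 ASO, higher in each U3 ASO library. Against the junction that also leaves out the next exon, it was at 0.256, 0.156 and 0.275 in GFP ASO and 0.490, 0.281 and 0.386 in U3 ASO, again without overlap (adjusted p = 0.868 by the quasi-binomial test with limma). The first of these events had the smallest adjusted p of the MRP events, 0.542 by the quasi-binomial test with limma. After siFUBP1 the same event was at 0.00835, 0.0232 and 0.0286 in siCtrl2 and 0.0336, 0.0266 and 0.0332 in siFUBP1, with overlap. After siFBL it was at 0.0112 and 0.00510 in siCtrl and 0.0296 and 0.0152 in siFBL, on 5, 3, 14 and 8 inclusion reads. These input groups did not overlap, and the event was not called (adjusted p = 0.898 by the quasi-binomial test with limma).

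The exon of MRPL52 with 2 ends (65 or 72 bases) shared its skipping reads with the 74-base exon. These were 24, 27 and 21 in siCtrl2 and 28, 0 and 0 in siFUBP1, and 3 events of the gene counted them. Inclusion of the 65-base form was 0.953, 0.959 and 0.958 in siCtrl2 and 0.952, 1.00 and 1.00 in siFUBP1. The 72-base form was at 0.893, 0.890 and 0.881 in siCtrl2 and 0.859, 1.00 and 1.00 in siFUBP1. The first siFUBP1 library was just below the control range for both forms, and the others had no skipping read. Against the same skipping reads the 74-base exon was at 0.163, 0.353 and 0.377 in siCtrl2 and 0.469, 1.00 and 1.00 in siFUBP1, without overlap and not called (adjusted p = 0.836 by the quasi-binomial test with limma). In the U3 ASO table the 72-base form was at 0.872, 0.852 and 0.90 in GFP ASO and 0.911, 0.836 and 0.908 in U3 ASO, with overlap. Spliced after the 74-base exon, the 65-base form had 0, 0 and 0 skipping reads in siCtrl2 and 1, 3 and 6 in siFUBP1.

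MRPS28, a small subunit protein, had the smallest p after siFUBP1 among MRP events. Its 182-base exon (chr8:80002999-80003180, minus strand) is the second of 3 exons of the canonical transcript and is coding. It had 0, 0 and 0 skipping reads beside 123, 190 and 115 inclusion reads in siCtrl2, and 9, 4 and 8 beside 105, 87 and 70 in siFUBP1. Inclusion was therefore 1.00 in each siCtrl2 library and 0.854, 0.916 and 0.814 in siFUBP1, without overlap. The 0 skipping reads allow a skipping share of up to 2.44%, 1.58% and 2.61% of the junction reads in the siCtrl2 libraries. These limits are not scaled for length as the inclusion level is, and would be larger on that scale. The adjusted p was 0.836 by the quasi-binomial test with limma.

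MRPS10, the homologue of bacterial S10, left out its 73-base coding exon in part. Inclusion was 0.839, 0.866 and 0.616 in GFP ASO and 0.970, 0.843 and 0.934 in U3 ASO. The groups overlapped, and the third GFP ASO library set most of the difference of 0.142 between the means. MRPS17, whose 140-base exon at chr7:55953179-55953318 holds the end of a UTR and coding sequence, was at 0.949, 0.993 and 0.908 in GFP ASO and 1.00, 1.00 and 0.993 in U3 ASO, which overlapped by a tie to 3 digits. MRPS31 had 4, 14 and 0 skipping reads in GFP ASO at its 159-base exon and 0, 0 and 0 in U3 ASO. MRPL9 (102-base exon, chr1:151761451-151761552) was at 0.830, 0.807 and 0.853 in GFP ASO and 0.824, 0.730 and 0.780 in U3 ASO, and the groups overlapped. MRPL2, the homologue of bacterial L2, was at 0.888, 0.838 and 0.874 in GFP ASO and 0.882, 0.963 and 0.937 in U3 ASO at its 74-base exon, with overlap.

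MRPL14, named here after its values were seen, was the other MRP gene with lower inclusion and no overlap under U3 ASO. Its 89-base exon, which holds coding sequence and UTR, had 0, 1 and 1 skipping reads in GFP ASO and 12, 7 and 5 in U3 ASO, beside 371 to 538 inclusion reads (adjusted p = 0.868 by the quasi-binomial test with limma).

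MRPL18 had a 120-base exon (chr6:159790668-159790787) that belongs to no coding transcript. Its event with the most reads was at 0.132, 0.307 and 0.126 in GFP ASO and 0.237, 0.207 and 0.226 in U3 ASO. In siCtrl2 it was at 0.437, 0.0667 and 0.198, and in siFUBP1 at 0.696, 0.270 and 0.172, on a mean of 22 reads per library. The groups overlapped in both comparisons. A second event under U3 ASO, with 16.5 reads per library on average, was at 0.316, 0.487 and 0.356 in GFP ASO and 1.00, 1.00 and 0.859 in U3 ASO (adjusted p = 0.868 by the quasi-binomial test with limma).

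Some MRP events with small p after siFUBP1 rested on 1 library. MRPS35 had 12 skipping reads in the first siFUBP1 library at its 70-base exon and 0 in the other 5 libraries. MRPS15 had 23 skipping reads in that library at its 49-base exon, and between 0 and 4 in the others. Its 85-base exon was at 0.832, 0.888 and 0.972 in siCtrl2 and 1.00, 0.943 and 0.866 in siFUBP1. MRPL9 was at 0.824, 0.924 and 0.835 in siCtrl2 and 0.946, 0.926 and 0.872 in siFUBP1. Both overlapped.

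**Figure D4:**
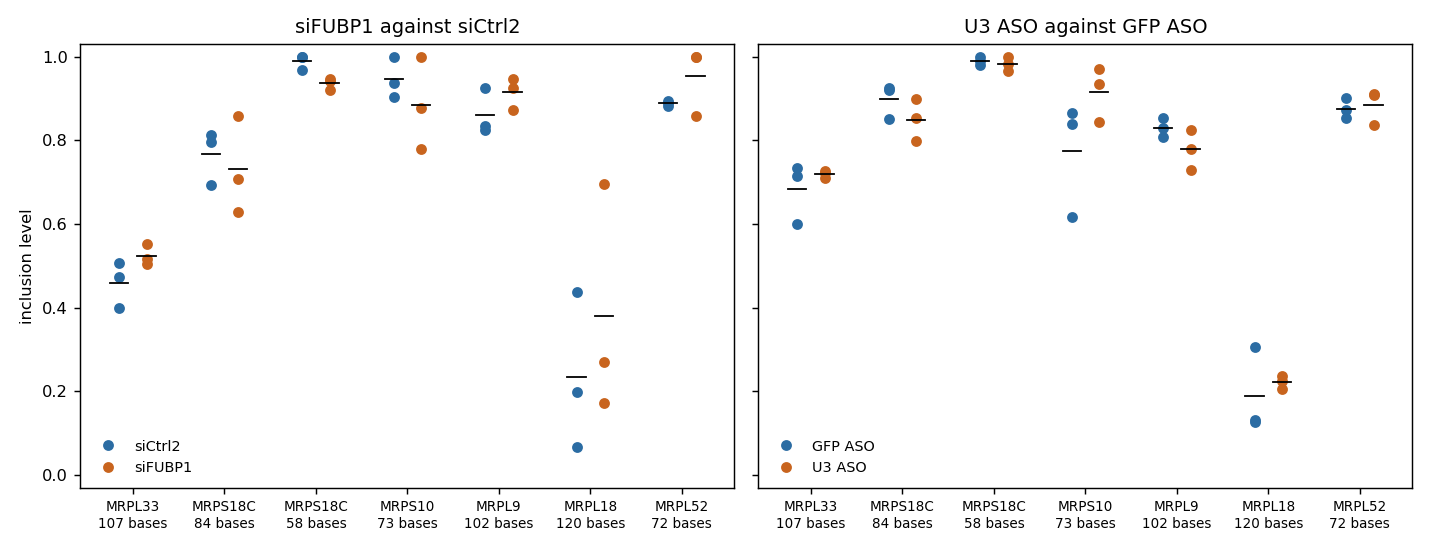
Inclusion level (y axis, 0 to 1) of 7 MRP exons (x axis, gene and exon length) in each of 3 control (blue) and 3 depleted (orange) libraries, with the mean as a line, from the event of each exon with the most reads. For the 58-base exon of MRPS18C after siFUBP1 the groups do not overlap (1.00, 0.969 and 1.00 against 0.946, 0.920 and 0.941), and for MRPL33 levels in siCtrl2 lie below those in GFP ASO.

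In the input libraries the values rested on few reads. MRPS18A, another paralogue of MRPS18C, was at 0.846 and 0.930 in siCtrl and 1.00 and 1.00 in siFBL at its 108-base exon, on 8, 1, 0 and 0 skipping reads. The 84-base exon of MRPS18C had 24 skipping reads in the first siCtrl library, no read of either kind in the second, which the fit left out, and 0 and 6 in siFBL. The 72-base form of the MRPL52 exon was at 0.705 and 1.00 in siCtrl and 0.469 and 0.747 in siFBL, which overlapped. The 65-base form, with the same skipping reads, was at 0.910 and 1.00 in siCtrl and 0.839 and 0.919 in siFBL and overlapped as well. MRPL22 had 10 skipping reads in the first siFBL library and 0 elsewhere, MRPL4 had 7 and MRPS6 had 9 in the second siFBL library and 0 elsewhere. MRPS10 had 7 in the first siCtrl library and 0 elsewhere. MRPS25 had 3 and MRPS35 had 5, both in the second siCtrl library and 0 elsewhere. MRPS15 was at 1.00 and 0.537 in siCtrl and 1.00 and 0.618 in siFBL at its 76-base exon.

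The level of MRP transcripts, as junction reads at their listed events, was lower after siFUBP1 and higher under U3 ASO, each against its own controls. The value is reads per 1000000 junction reads of the table, and a read is counted once for each event it supports. In bulk RNA, fewer cells of a type and less RNA per cell cannot be told apart. It was 4568, 4440 and 4578 in siCtrl2 and 4418, 4199 and 4207 in siFUBP1, a ratio of the means of 0.944 without overlap. In GFP ASO it was 4951, 5159 and 4983 and in U3 ASO 5837, 5746 and 5933, a ratio of 1.16 without overlap. In the input it was 1684 and 1936 in siCtrl and 1679 and 1937 in siFBL. The smallest p that an exact permutation test allows with 3 libraries against 3 is 0.1, and no p is given for these sums. When the 20 events with the most reads were left out of the total, the siFUBP1 groups overlapped (ratio 0.953). Cytosolic ribosomal protein genes (0.899) and respiratory chain genes (0.932) were also lower after siFUBP1 without overlap.

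The scale bears on both ratios. Cytosolic ribosomal protein genes were at 71260, 74690 and 75630 reads per 1000000 in GFP ASO and 56530, 53890 and 54710 in U3 ASO, and the median ratio over 8192 genes was 1.20. The median ratio of the MRP genes, 1.16 over 52 genes, was below that shift. Respiratory chain genes had a median ratio of 1.10 over 49 genes. Reads of 24 MRP genes were higher in each U3 ASO library than in each GFP ASO library (46.2%, against 39.2% of all genes) and those of 3 were lower (5.77%, against 11.5%). The 3 were MRPL11 (ratio 0.823), MRPL17 (0.656) and MRPS15 (0.819). The highest ratio among the 24 was that of MRPS23, with 73.1, 98.2 and 90.1 reads per 1000000 in GFP ASO and 167, 184 and 195 in U3 ASO. MRPS5 followed, with 156, 175 and 165 against 269, 277 and 290. Both genes code for small subunit proteins, and the 3 lower genes for both subunits. All genes named from these levels were chosen after their values were seen.

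After siFUBP1 the median ratio was 0.925 over 44 MRP genes and 0.974 over 5845 genes. Reads of 3 MRP genes were higher without overlap (6.82%, against 12.0% of all genes) and those of 5 were lower (11.4%, against 14.9%). The higher genes were MRPS6, MRPL42 and MRPL35. MRPS6 was at 29.7, 27.9 and 26.9 reads per 1000000 in siCtrl2 and 46.3, 64.7 and 62.0 in siFUBP1. The lower genes were MRPL17, MRPL48, MRPL1, MRPS28 and MRPS25. MRPL17 was at 38.7, 28.6 and 29.9 in siCtrl2 and 19.4, 11.9 and 14.5 in siFUBP1, and MRPL48 at 113, 88.1 and 104 and 42.1, 54.7 and 48.3. MRPL17 was thus lower in both the siFUBP1 and the U3 ASO libraries, each against its own controls, from 1 listed event in each table. The ratio after siFUBP1 varied little with FUBP1 enrichment in the RIP (rank correlation = 0.121 over 44 MRP genes, a description).

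In the input table, reads of 2 MRP genes of 14 were higher without overlap after siFBL (14.3%, against 15.0% of all genes) and those of 3 were lower (21.4%, against 31.0%). MRPS18A (73.5 and 26.4 in siCtrl, 127 and 122 in siFBL) and MRPL33 (61.3 and 48.3, 105 and 90.2) were higher, and MRPL4, MRPL14 and MRPL2 were lower. Each group had 2 libraries.

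The skipping share, the percentage of skipping reads among the junction reads of tested events, was higher for MRP genes than for all events in each table. It was 12.39%, 11.78% and 11.88% in siCtrl2 and 12.36%, 11.35% and 12.38% in siFUBP1, with overlap, while all events were at 6.70% to 6.93% in these 6 libraries. In GFP ASO it was 7.89%, 8.30% and 7.82% and in U3 ASO 7.37%, 7.53% and 7.53%, lower in each U3 ASO library. All events went the other way, from 5.10%, 5.22% and 5.17% in GFP ASO to 5.81%, 5.71% and 5.80% in U3 ASO. The change at MRP events was -0.529 percentage points. In the input it was 21.3% and 25.8% in siCtrl and 28.9% and 23.5% in siFBL, with overlap. Respiratory chain genes were also above all events, at 12.36% to 14.91% in the siFUBP1 comparison and 8.53% to 9.89% in the U3 ASO comparison. In the input they were at 11.39% to 13.45%. Cytosolic ribosomal protein genes were below all events in each comparison.

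MRPL52 weighed on these shares. Without its events the MRP share was on average 7.88% in siCtrl2, 5.97% in GFP ASO and 5.93% in siCtrl input, where it was below the 7.31% and 7.34% of all events. In the depleted groups it was 8.235% in siFUBP1, 5.17% in U3 ASO and 6.34% in siFBL input. In U3 ASO it was thus below the 5.71% to 5.81% of all events, and in siFBL input below their 7.10% and 7.25%. The change under U3 ASO without MRPL52 was -0.802 percentage points. With each skipping junction counted once it was -0.345. The small subunit genes were at 2.35%, 2.72% and 2.90% in GFP ASO and 2.22%, 1.99% and 2.02% in U3 ASO, without overlap, and the large subunit genes overlapped. After siFUBP1 the small subunit share was higher, at 5.80%, 5.53% and 5.65% against 5.38%, 4.80% and 4.81% in siCtrl2. After siFBL the large subunit share was 39.8% and 31.5% against 28.7% and 30.2%, and the small subunit share 0% and 4.66% against 7.07% and 7.78%. These shares are sums over genes with unequal reads and were not tested. They also count reads that pass over exons outside the canonical transcript, which need not leave out an exon of that transcript. In the siFUBP1 comparison, skipping reads made up 99.8% for MRPL11, 99.1% for MRPL42 and 98.2% for MRPL32. The exons listed there for these genes all lie outside the canonical transcript.

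**Figure D5:**
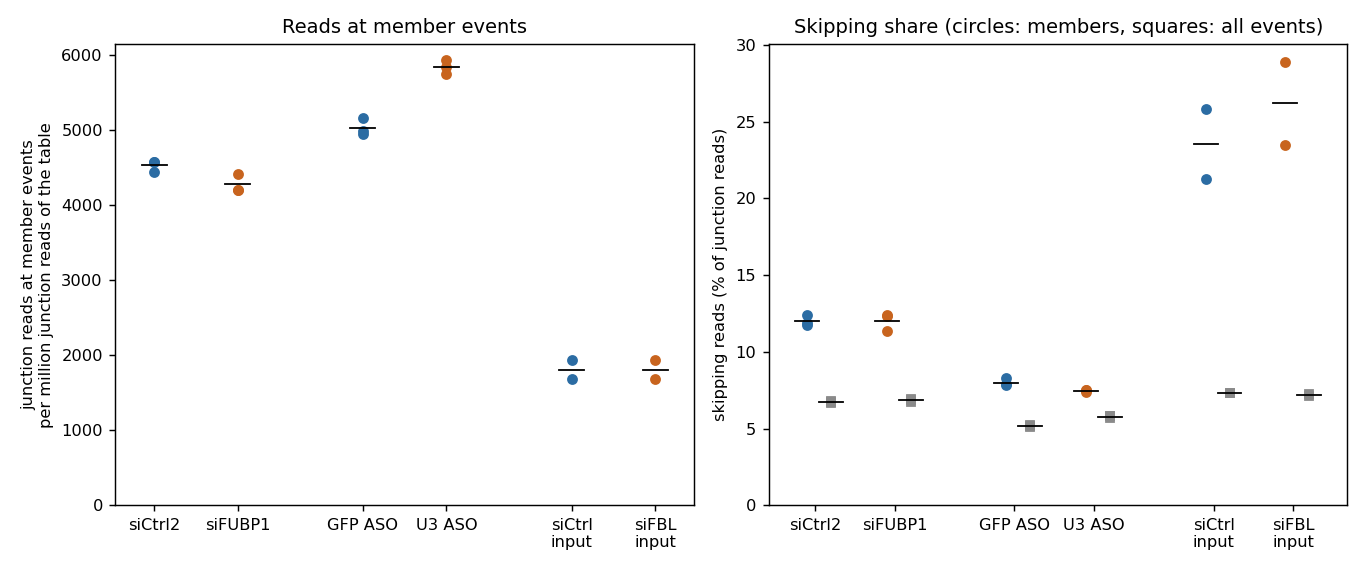
Left, junction reads at MRP events per 1000000 junction reads of the table (y axis) in each library of the 6 groups, with the mean as a line. Right, the skipping share (y axis, percent) of MRP events (circles) and of all events (squares); under U3 ASO the MRP share lies between 7.82% and 8.30% in GFP ASO and between 7.37% and 7.53% in U3 ASO, while that of all events is higher in U3 ASO.

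In the lists of other mitochondrial translation genes, no event was called in any of the 3 comparisons by the quasi-binomial test with limma. Tested events numbered 15, 23 and 3 for the mitoribosomal proteins under other names (siFUBP1, U3 ASO and siFBL in this order), of which 0, 0 and 0 passed 0.05 unadjusted. For assembly and rRNA modification the counts were 21, 58 and 3, of which 1, 1 and 0 passed. For translation factors they were 32, 58 and 9, of which 1, 3 and 0 passed, and for tRNA synthetases 36, 77 and 4, of which 1, 2 and 0 passed. Their reads under U3 ASO had ratios of 1.32, 1.20, 1.22 and 0.960, in the order of the lists. The first is the sum over 3 genes. Of these 4 lists, only the tRNA synthetases overlapped between the groups.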

How the data were processed

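Of 20 samples in 8 groups, the polyadenylated RNA and input libraries were used as junction reads and the RIP libraries as enrichment. The authors removed adapters (Cutadapt) and used HISAT2 for alignment to hg38, with tool versions not given in the sources used here. SE events had been counted with rMATS from junction reads. The deposited lists hold 1 whole number per library, in an order that carries no replicate number. In the RIP table the deposited log2 values are the authors' DESeq2 estimates of RIP over input, with standard errors on the log2 scale. The mean normalized count is a score that the authors averaged in each condition. The values that a single read leaves in it show 6 libraries per condition, of which 2 were RIP, 2 input and 2 in neither arm. The sources used here name both HTSeq and featureCounts for the counting. The authors' p-values, FDR, test statistics and inclusion differences, and 6 columns of inclusion levels per library, were not used.

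The inclusion level is the length-scaled share of inclusion reads. The quasi-binomial test took its dispersion from limma 3.58.1 (squeezeVar, trend on the rank of the information; R 4.3.3), with F tests in either direction and Benjamini-Hochberg adjustment over all events tested, and calls at an adjusted p under 0.1. The estimated prior weight was infinite, so each event took the dispersion of the trend. The RIP difference (siFBL minus siCtrl) was divided by its combined standard error and tested in either direction over all genes with a mean normalized count of at least 10 and an estimate other than 0 in both conditions. These scripts were tested on simulated data. Features came from GENCODE 44, with a canonical transcript for 87.2% of the genes tested in RIP and for all 78 MRP genes. GENCODE names 80 pseudogenes after 36 of the MRP genes, and how reads that match both were counted is not given in the sources used here. Named events were the 8 with the smallest p in each table and those with control inclusion between 0.1 and 0.9 and at least 20 reads per library (up to 8). Named RIP genes were the 8 highest, the 5 lowest and the 8 with the smallest p. The members and lists were chosen with earlier results of these data known. Replicates are described as biological. The p-values of the quasi-binomial test use the spread between libraries as a trend over all events, not the spread of the single event. Those of the RIP difference rest on the standard errors given with the authors' estimates. Intervals and floors cover counting error only. One exon event that the naming rule chose is not reported here, and the counts of events include it.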

Additional observations from a re-analysis of the deposited data

How the results depend on the processing

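No MRP event was called in any comparison under limma on the log2 odds, a minimum of 20 reads, no filter, a dispersion trend on the mean reads, or with any 1 library left out. The number of MRP genes with a changed enrichment after siFBL was 6 with a mean count of at least 50, 4 with no filter and 5 after centring on the median, against 5. All 78 MRP genes passed each filter, and centring altered only the difference. The median enrichment could therefore not move and is no check. RIP libraries could not be left out, since the table holds 1 estimate per condition. No paired analysis was possible because positions in the lists of reads carry no replicate number and the RIP table has no column per library.

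The ratio of MRP junction reads under U3 ASO was 1.14, against 1.16, both without the 20 events with the most reads in the total and without MRPL52, and 1.15 to 1.18 with 1 library left out. After siFUBP1 it was 0.928 to 0.952 and after siFBL 0.928 to 1.07 with 1 library left out. Counting each skipping junction once moved the change of the skipping share from 0.0124 to -0.429 percentage points after siFUBP1 and from -0.529 to -0.345 under U3 ASO, and leaving out MRPL52 moved the latter to -0.802. With 1 library left out, the change ran from -0.162 to 0.352 after siFUBP1, -0.619 to -0.382 under U3 ASO and -0.0270 to 5.33 after siFBL. The counting of exons and junctions once and the runs without MRPL52 were chosen after seeing the data. The input libraries held the fewest reads, and 29 MRP events were tested there.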
